A study of Mus musculus with 9 samples.

Results

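The genes described here were chosen to mark the ureteric stalk and the collecting duct, the part of the ureteric tree that stops branching and takes up water and salt. The 9 genes were chosen by name, and all were found among the 24138 loci of the deposited table. They are *Gata2*, *Gata3*, *Tfcp2l1*, *Elf5*, *Aqp2*, *Aqp3*, *Avpr2*, *Scnn1a* and *Calb1*. Whole kidneys of C57Bl6/J mouse embryos were sequenced at E15.5, with 3 libraries for each of 3 genotypes. WT kidneys were *Ntn1fl/fl* without Cre, HET kidneys were *Foxd1GC/+;Ntn1fl/+* and MUT kidneys were *Foxd1GC/+;Ntn1fl/fl*, so every animal carried at least 1 floxed *Ntn1* allele, and both HET and MUT carried the Cre allele. *Foxd1GC* is a GFP-Cre knock-in at *Foxd1*, which acts in Foxd1+ stromal progenitors and leaves 1 functional *Foxd1* copy. The deletion was therefore made in the stromal lineage and not in the ureteric epithelium that the 9 genes were chosen to mark. Some of these genes can also be expressed by other cells, as described below for *Gata2* and *Gata3*. None was shown here to be confined to the stalk and duct. Embryos of both sexes were used, and the kidneys came from 3 crosses.

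The ureteric bud grows as tips that branch and a stalk that follows behind them, and the stalk matures into collecting duct. In the mature duct, principal cells take up water and sodium, and intercalated cells move acid and base. Vasopressin binds the receptor Avpr2 on principal cells, which raises cAMP and brings the water channel Aqp2 to the apical membrane, while Aqp3 lets the water leave through the basolateral side. Scnn1a is the alpha subunit of the epithelial sodium channel. Gata2 and Gata3 are zinc finger transcription factors that bind the letters GATA, and both are used in the ureteric lineage. Gata2 is known as an activator of *Aqp2* in collecting duct. Tfcp2l1 is a transcription factor needed for the pattern of principal and intercalated cells, Elf5 is an ETS factor of principal cells, and Calb1 (calbindin) is a calcium-binding protein used to stain the ureteric tree.

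Promoter sequences of *Aqp2*, *Elf5* and *Aqp3* are shown first, because with *Scnn1a* they make up the 3 pairs of genes whose levels passed a test of correlation across libraries. RefSeq gave a window from 250 bases before to 50 bases after the annotated start on GRCm38.p6 for 7 of the 9 genes, in 9 windows. *Calb1* and *Scnn1a* had no entry. Capitals mark the GATA letters (AGATAA and also AGATAG as well as TGATAA and also TGATAG), the core letters of the cAMP response element (TGACG) and the TATA letters (TATAAA), each searched on both strands. A match on the other strand therefore reads as its reverse complement. The *Aqp2* window lies at chr15:99578806-99579105 on the plus strand, the *Elf5* window (its more distal start) at chr2:103411848-103412147 on the plus strand and the *Aqp3* window at chr4:41098134-41098433 on the minus strand.
Aqp2: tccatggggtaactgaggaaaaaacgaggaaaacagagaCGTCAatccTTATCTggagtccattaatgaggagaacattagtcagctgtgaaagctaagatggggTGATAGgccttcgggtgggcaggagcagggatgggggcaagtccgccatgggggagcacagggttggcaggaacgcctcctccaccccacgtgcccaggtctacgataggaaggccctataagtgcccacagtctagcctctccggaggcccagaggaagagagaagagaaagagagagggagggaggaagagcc
Elf5: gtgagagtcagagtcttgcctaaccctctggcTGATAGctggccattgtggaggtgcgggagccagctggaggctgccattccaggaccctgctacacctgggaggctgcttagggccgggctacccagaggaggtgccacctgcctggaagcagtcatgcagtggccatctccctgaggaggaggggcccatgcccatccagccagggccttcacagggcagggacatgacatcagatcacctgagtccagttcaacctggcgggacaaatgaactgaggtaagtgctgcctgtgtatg
Aqp3: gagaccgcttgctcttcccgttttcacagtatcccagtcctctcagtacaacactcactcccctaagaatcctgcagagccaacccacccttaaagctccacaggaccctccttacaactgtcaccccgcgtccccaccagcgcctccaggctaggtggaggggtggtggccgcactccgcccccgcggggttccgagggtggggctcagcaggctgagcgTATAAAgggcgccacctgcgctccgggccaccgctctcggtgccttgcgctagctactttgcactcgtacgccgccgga

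The *Aqp2* window held 2 GATA matches, of which the nearer began 145 bases before the start and the other, on the opposite strand, 202 bases before it. It also held the cAMP core on the opposite strand, 211 bases before the start. The *Elf5* window held 1 GATA match, 218 bases before the start, and the *Aqp3* window held the TATA letters 29 bases before the start and no GATA match. *Gata3* and *Avpr2* each had 1 GATA match, after the start, so that 4 of the 9 windows had one, each of a different gene. The *Avpr2* window also held the TATA letters on the opposite strand, 45 bases before the start, and the second window of *Elf5* held the cAMP core on the opposite strand, 56 bases before its start. *Gata2* had none of the letters in either of its 2 windows, and *Tfcp2l1* had the cAMP core and the TATA letters. Of 32851 mouse promoter windows of this length, 29.8% held a GATA match, 20.8% the cAMP core and 13.6% the TATA letters. A match is a description of letters and is not evidence of binding.

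The 9 genes spanned a wide range of levels in FPKM, a unit that is scaled to transcript length and library size. *Calb1* was the most abundant, with a mean of 87.4 FPKM over the 9 libraries. *Tfcp2l1* followed at 26.8 FPKM, *Gata3* at 21.4 FPKM, *Gata2* at 16.0 FPKM, *Aqp3* at 15.48 FPKM and *Aqp2* at 12.9 FPKM. The remaining genes were scarcer, with *Elf5* at 6.61 FPKM, *Scnn1a* at 3.68 FPKM and *Avpr2*, the receptor, at 2.65 FPKM. *Calb1* exceeded *Tfcp2l1* in 9 of 9 libraries, *Aqp2* exceeded *Elf5* in 9 of 9 and *Elf5* exceeded *Scnn1a* in 9 of 9. *Gata2* exceeded *Aqp3* in only 6 of 9 libraries and *Aqp3* exceeded *Aqp2* in 7 of 9, so the order of these 3 was not the same in every library. The other neighbours kept their order in 8 of 9 libraries.

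**Figure D1:**
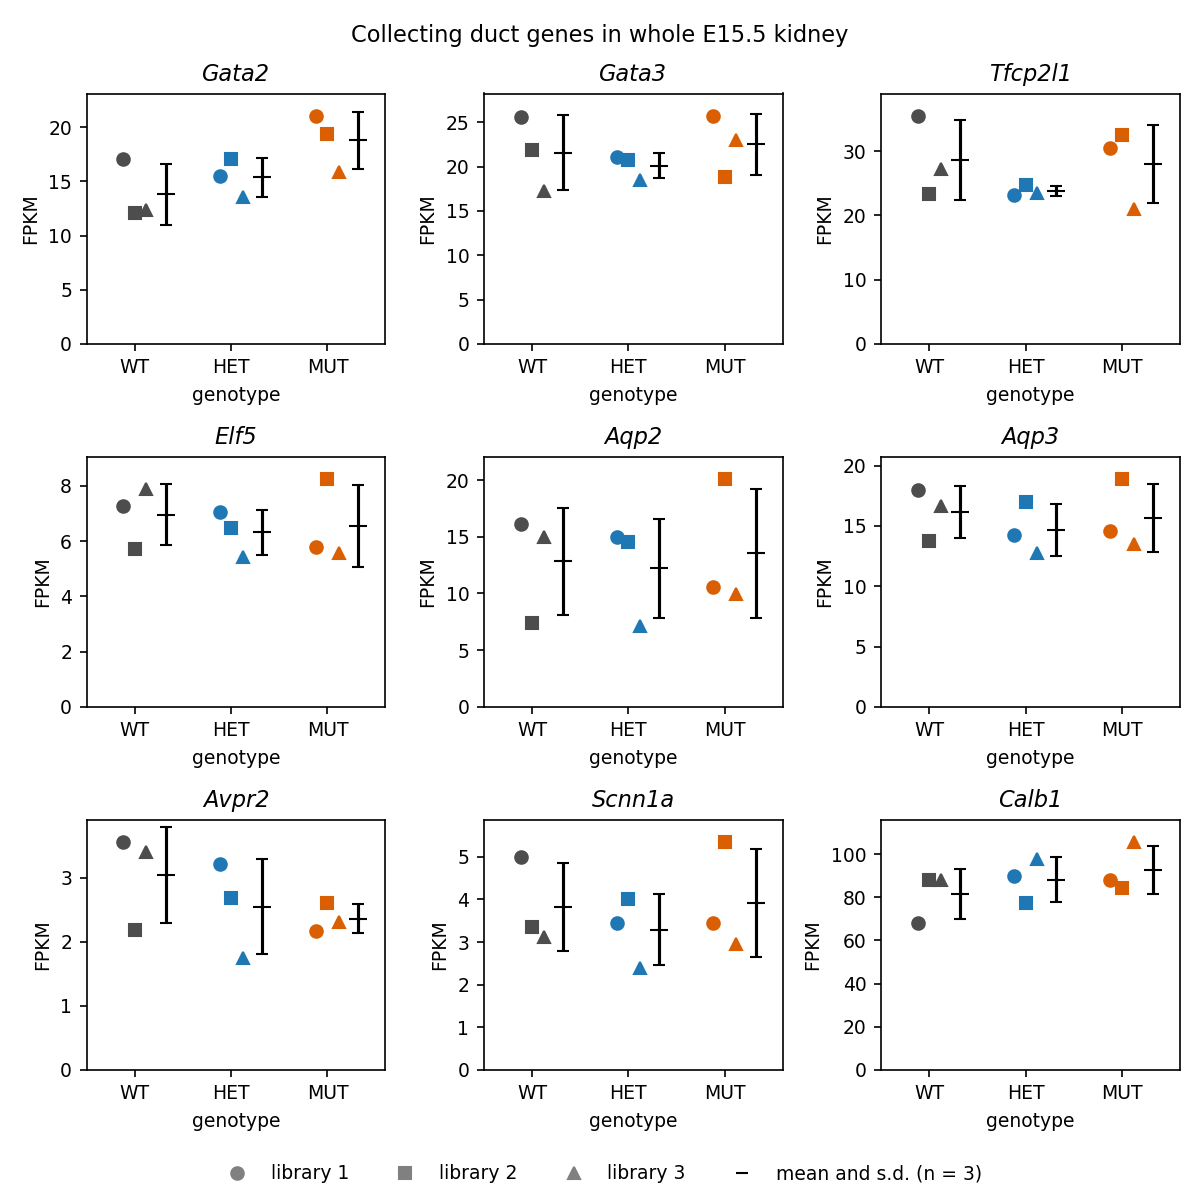
FPKM of the 9 genes in each library (vertical axes, from 0), by genotype, with marker shapes for the library number and a bar for the mean and s.d. of 3 libraries. *Gata2* has its highest values in MUT, while the groups overlap for every gene and *Aqp2* spreads from 7.17 to 20.1 FPKM.

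*Ntn1* and *Foxd1* were read first as the check of the genotypes. *Ntn1* stood at 26.1, 28.9 and 17.8 FPKM in WT, at 12.3, 12.02 and 16.5 FPKM in HET, and at 10.8, 16.5 and 11.04 FPKM in MUT. *Ntn1* was thus lower in both Cre genotypes than in every WT library, while HET and MUT overlapped, so the row did not separate these 2 genotypes. At the protein level, the paper's immunostaining found little or no Ntn1 around the nephron progenitors of MUT kidneys. Which exons are floxed is not given in the sources used here, and a row of the whole locus can include exons that are kept. *Foxd1*, which loses 1 copy with the knock-in, ranged from 25.8 to 33.7 FPKM in WT, from 20.2 to 21.7 FPKM in HET and from 22.5 to 24.8 FPKM in MUT. No genotype overlapped another for *Foxd1*, with an exact two-sided permutation p of 0.1 in each comparison, the smallest that 3 libraries against 3 can give.

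One library stood apart. In HET library 2 the 8 liver markers summed to 742 FPKM, against 32.9 to 56.9 FPKM in the other 8 libraries, and the 9 sympathoadrenal markers summed to 29.7 FPKM, against 3.83 to 5.90 FPKM. Its 5 erythroid markers summed to 64.1 FPKM, against 22.0 to 30.9 FPKM elsewhere. The defining sympathoadrenal genes *Th* and *Dbh* reached 4.93 and 5.13 FPKM there, while *Th* stayed between 0.04 and 0.36 FPKM in the others. Sympathoadrenal, blood-forming and endothelial cells can express *Gata2*, and sympathoadrenal cells *Gata3*, so their comparisons with HET are also given without this library. Read depth is not stated. From the steps between low FPKM values, WT library 2 and MUT library 3 had the lowest relative depth, at 0.574 and 0.616 of that of WT library 1, and the other 6 lay between 0.908 and 1.283.

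The comparison of MUT with HET is the one the study made, since both genotypes carry Cre and differ in the second *Ntn1* allele. *Gata2* was the only one of the 9 genes that was higher in MUT in 3 of 3 same-numbered pairs and had an unadjusted p under 0.05. No gene passed the threshold of an adjusted p under 0.05 (limma, replicate number as a block, Benjamini-Hochberg), either among the 7 genes of the 9 that reached 5 FPKM or among all 10081 genes tested (0% called), of which 494 had an unadjusted p under 0.05. The smallest adjusted p over all genes was 0.237.

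*Gata2* was measured at 17.1, 12.04 and 12.4 FPKM in WT, at 15.52, 17.1 and 13.5 FPKM in HET, and at 21.0, 19.4 and 15.9 FPKM in MUT. MUT libraries 1 and 2 were higher than every other library, and MUT library 3 lay within the range of HET, so the groups overlapped. The ratio of the mean FPKM of MUT over that of HET was 1.22, and the pairs had ratios of 1.35, 1.14 and 1.18. The log2 fold change on the log2(FPKM + 1) scale was 0.27 (s.e. 0.12, 95% interval 0.0040 to 0.54, adjusted p = 0.933 by limma). The exact permutation p was 0.2. An unadjusted p under 0.05 was found for 4.9% of all genes tested and for 1 of the 7 tested here, *Gata2*. Without HET library 2, in a fit with no block, the log2 fold change was 0.34, and over all the alternatives it stayed between 0.20 and 0.34. The unadjusted p was not under 0.05 without replicate number 1, where the log2 fold change was 0.20, without number 2, with a pseudocount of 3, with a minimum of 1 FPKM, with no block, with no trend or with the GC correction.

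Against WT, *Gata2* had the largest difference in size among the 9 genes. The mean was 13.8±2.82 FPKM in WT and 18.8±2.61 FPKM in MUT (mean±s.d., n = 3), a ratio of 1.36, with pair ratios of 1.23, 1.61 and 1.29. The log2 fold change was 0.42 (s.e. 0.10, 95% interval 0.17 to 0.68, adjusted p = 0.995 by limma), and WT library 1 lay above MUT library 3. An unadjusted p under 0.05 was found for 1.99% of all 10096 genes tested (201 genes) and again for *Gata2* alone among the 7, and 0% passed after adjustment. Between HET and WT the log2 fold change was 0.15 (95% interval -0.13 to 0.44), and HET was higher in 2 of 3 pairs. Without HET library 2, in a fit with no block, it was 0.08. In that comparison 2.31% of 10105 genes tested (233 genes) and 0 of the 7 had an unadjusted p under 0.05, and 0% passed after adjustment. The 3 comparisons share libraries and are not independent of one another. Relative depth moved with *Gata2* across the 9 libraries (r = 0.61, exact permutation p = 0.0785, rho = 0.73, exact p = 0.0311, adjusted p = 0.297 and 0.224 over 144 relations), although without WT library 2 and MUT library 1, r was 0.12. The part of depth in the difference between genotypes was not tested.

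**Figure D2:**
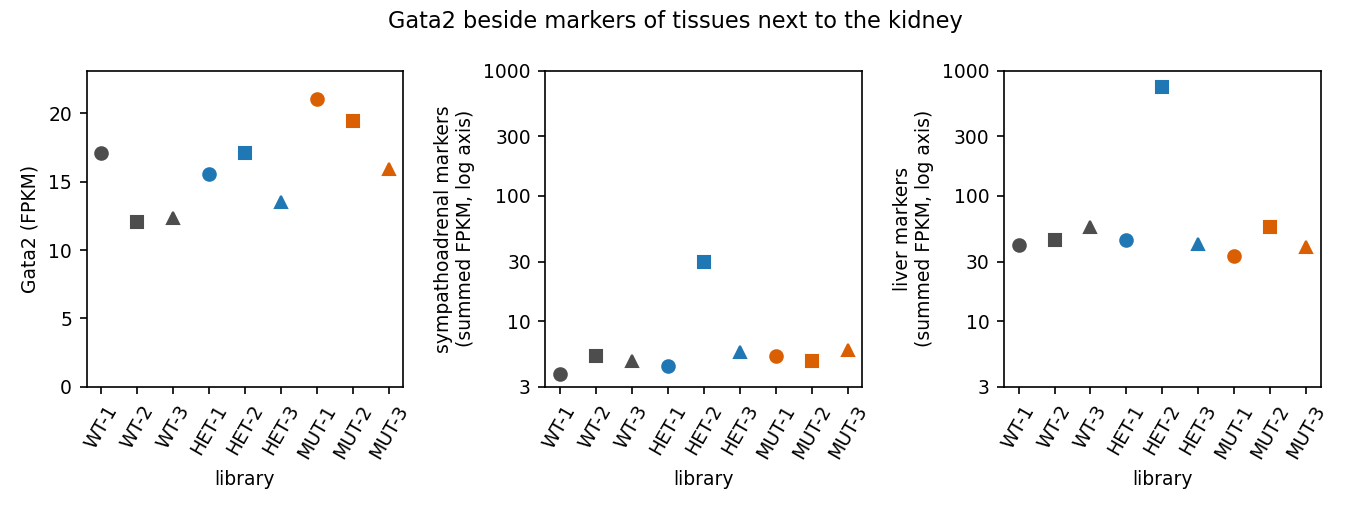
*Gata2* (left, FPKM from 0) and the summed FPKM of the sympathoadrenal and liver markers (log axes) in each of the 9 libraries. HET library 2 stands apart in both marker sums, at 29.7 and 742 FPKM, and not in *Gata2*, at 17.1 FPKM.

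*Gata3*, the paralogue that is required for the ureteric bud, did not separate the genotypes. It was measured at 25.6, 21.8 and 17.2 FPKM in WT, at 21.1, 20.7 and 18.5 FPKM in HET, and at 25.7, 18.8 and 23.0 FPKM in MUT. Its highest value was in MUT and its lowest in WT, and the HET libraries lay between them. MUT differed from HET by a log2 fold change of 0.15 (95% interval -0.14 to 0.44) and from WT by 0.07 (-0.25 to 0.38), and HET differed from WT by -0.08 (-0.32 to 0.16). Without HET library 2, in fits with no block, the log2 fold change of MUT against HET was 0.17 and that of HET against WT -0.10. The row overlaps the antisense gene *Gm13256*, and whether the quantification used strand is not given in the sources used here.

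*Tfcp2l1* stood at 35.4, 23.3 and 27.1 FPKM in WT, at 23.2, 24.6 and 23.5 FPKM in HET, and at 30.4, 32.5 and 21.0 FPKM in MUT. The HET libraries were close to one another (23.8±0.760 FPKM, mean±s.d., n = 3), whereas MUT spread over both sides of them, and WT had 1 library within their range and the others above it. MUT against HET gave a log2 fold change of 0.20 (95% interval -0.11 to 0.51). It was -0.04 in MUT against WT (-0.43 to 0.36) and -0.24 in HET against WT (-0.55 to 0.07).

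*Elf5* ranged from 5.73 to 7.88 FPKM in WT, from 5.44 to 7.05 FPKM in HET and from 5.59 to 8.24 FPKM in MUT. These ranges cover one another almost whole. MUT differed from HET by 0.03 on the log2 scale (95% interval -0.33 to 0.39), from WT by -0.09 (-0.53 to 0.36) and HET differed from WT by -0.12 (-0.47 to 0.23).

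The water channel *Aqp2* varied more between libraries than any of the other 8 genes, with a coefficient of variation of 33.7% and a 2.80-fold range. It was measured at 16.1, 7.40 and 15.0 FPKM in WT, at 14.9, 14.5 and 7.17 FPKM in HET, and at 10.6, 20.1 and 9.95 FPKM in MUT. In each genotype 1 library stood away from the other two, and these were WT library 2, HET library 3 and MUT library 2. The log2 fold change in MUT against HET was 0.13 (s.e. 0.17, 95% interval -0.23 to 0.50). Against WT it was 0.07, with the widest interval of the set (-0.79 to 0.94), so neither a fall nor a rise of about that size was detectable here. Without replicate number 2, which holds the lowest WT and the highest MUT library, it was -0.55 against WT and passed the threshold (adjusted p = 0.0104 by limma with 1 residual degree of freedom). Its adjusted p ran from 0.0104 to 1.00 over the fits, and in the fit without number 2, 1.66% of all genes passed.

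*Aqp3*, the basolateral water and glycerol channel, was steadier. It was measured at 18.0, 13.8 and 16.6 FPKM in WT, at 14.3, 17.0 and 12.7 FPKM in HET, and at 14.6, 18.9 and 13.5 FPKM in MUT. MUT was higher than HET in 3 of 3 same-numbered pairs, but by ratios of only 1.02, 1.11 and 1.06. On the log2 scale this was 0.08 (95% interval -0.18 to 0.35), and in MUT against WT it was -0.05 (-0.43 to 0.33).

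*Scnn1a* and *Avpr2* were under 5 FPKM in every genotype mean and entered only a fit with a minimum of 1 FPKM, in which all 9 genes were tested and none passed in any comparison. *Scnn1a* was measured at 4.998, 3.34 and 3.13 FPKM in WT, at 3.46, 4.02 and 2.40 FPKM in HET, and at 3.45, 5.34 and 2.95 FPKM in MUT. Its log2 fold change was 0.18 in MUT against HET (95% interval -0.12 to 0.49) and 0.02 against WT (-0.44 to 0.48). *Avpr2* was measured at 3.56, 2.19 and 3.398 FPKM in WT, at 3.22, 2.69 and 1.75 FPKM in HET, and at 2.16, 2.61 and 2.32 FPKM in MUT. Its mean was lowest in MUT (2.36±0.227 FPKM, mean±s.d., n = 3), and WT library 2 lay within the MUT range. The log2 fold change was -0.25 in MUT against WT (95% interval -0.63 to 0.13) and -0.06 against HET (-0.42 to 0.31). Without replicate number 2 it was -0.47 against WT (adjusted p = 0.0280 by limma, from 0.0280 to 1.00 over the fits), in a fit in which 2.8% of all genes passed. The *Avpr2* row is uncertain, because it runs from 73892102 to 73911298 on chromosome X, past the annotated end of the gene at 73895502, and overlaps *Arhgap4* and *L1cam* on the other strand. Those genes had 1.29 to 2.11 and 3.30 to 5.30 FPKM in rows of their own.

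*Calb1* was measured at 67.9, 88.1 and 88.0 FPKM in WT, at 89.9, 77.1 and 97.6 FPKM in HET, and at 88.1, 84.3 and 105.5 FPKM in MUT. WT library 1 was the lowest and MUT library 3 the highest, and the other 7 lay between 77.1 and 97.6 FPKM. Its log2 fold change was 0.07 in MUT against HET (95% interval -0.26 to 0.39) and 0.19 against WT (-0.10 to 0.47).

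**Figure D3:**
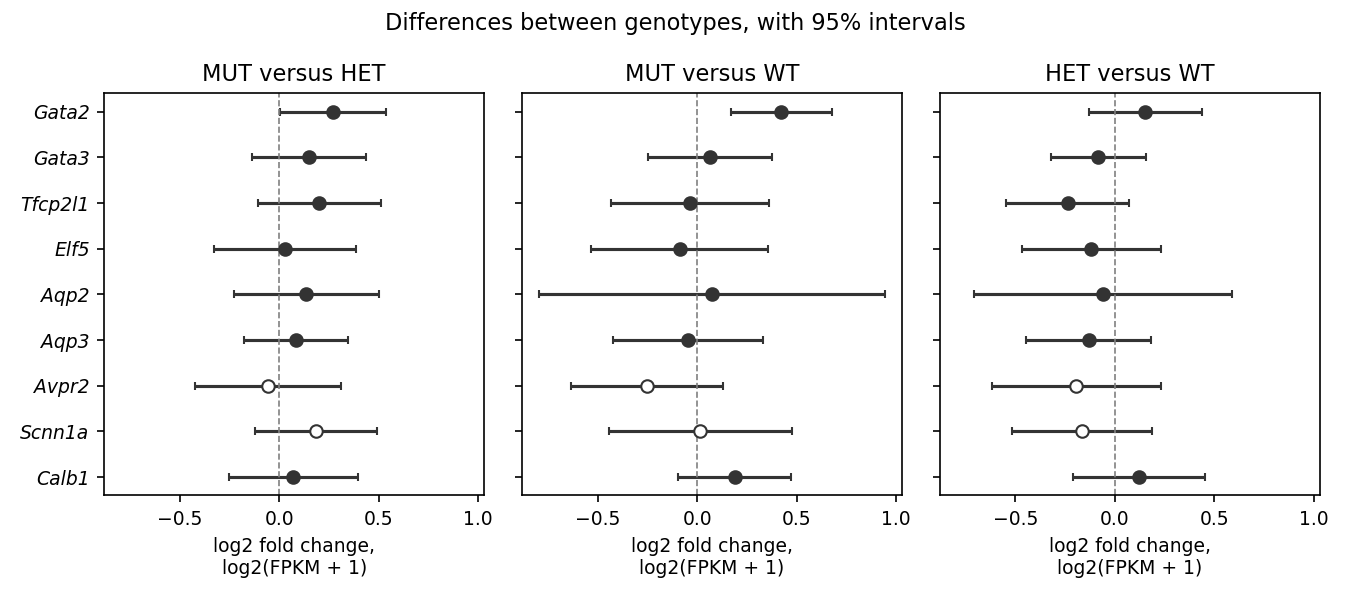
Log2 fold change of each gene in the 3 comparisons (horizontal axis, log2(FPKM + 1) scale), with 95% intervals from limma and open points for the 2 genes under 5 FPKM. Only *Gata2* has intervals that leave 0 out, in MUT against HET and in MUT against WT, and neither passed after adjustment over all genes.

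As a list, the genes are described here by counts and medians, with no test. In MUT against HET 7 of 7 tested genes had a higher mean log2 level, with a median log2 fold change of 0.13, where 45.9% of all genes tested were higher and their median was -0.02. Of the genes under 5 FPKM, *Scnn1a* was higher (0.18) and *Avpr2* lower (-0.06). Several of the genes vary together across libraries, as described below, so such counts are not of independent genes. In MUT against WT 4 of 7 were higher (median 0.07, against -0.00 for all genes), and in HET against WT 2 of 7 (median -0.08, against 0.01). Leaving out 1 replicate number turned the direction of *Aqp2* and of *Elf5* in MUT against HET, and leaving out HET library 2 turned that of *Calb1*. In no comparison did the groups stop overlapping for any of the 9 genes, where 9.69% of all genes tested did not overlap in MUT against HET, 2.65% in MUT against WT and 3.21% in HET against WT. Whole kidney was sequenced, so fewer cells of a type and less RNA per cell cannot be told apart.

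The genes were also compared with one another across libraries, whatever the genotype. Of 36 pairs of genes, 25 had a positive correlation over the 9 libraries, and 3 passed the Benjamini-Hochberg adjustment in both r and rho. *Aqp2* and *Elf5* were the closest pair (r = 0.91, exact permutation p = 0.0012, adjusted 0.0224; rho = 0.97, exact p = 0.0002, adjusted 0.0060). *Aqp2* and *Aqp3* followed (r = 0.88, exact permutation p = 0.00247, adjusted 0.0296; rho = 0.90, exact p = 0.00203, adjusted 0.0221), and then *Aqp3* and *Scnn1a* (r = 0.88, exact permutation p = 0.0009, adjusted 0.0224; rho = 0.88, exact p = 0.0031, adjusted 0.0221). Without the 2 libraries farthest from the median of the first gene, r was 0.93, 0.85 and 0.71. As deviations from the genotype means, r was 0.95, 0.91 and 0.88, so the relation was present within genotypes. HET library 3 was the lowest library for *Aqp2*, *Aqp3*, *Elf5*, *Scnn1a* and *Avpr2*, and MUT library 2 the highest for the first 4 of these.

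*Calb1* ran against the rest, with a negative r to each of the other 8 genes. Its strongest relation by rank was with *Aqp3* (rho = -0.88, exact permutation p = 0.0031, adjusted 0.0221; r = -0.76, exact p = 0.0118, adjusted 0.0647), and r was -0.77 without WT library 1 and MUT library 2. The Pearson value missed the threshold. With *Scnn1a* r was -0.77 and with *Tfcp2l1* -0.73, and the latter was -0.26 without WT library 1 and MUT library 3. *Gata2* had no relation past the threshold with any of the other genes, *Aqp2* included (r = 0.47, exact permutation adjusted p = 0.300).

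**Figure D4:**
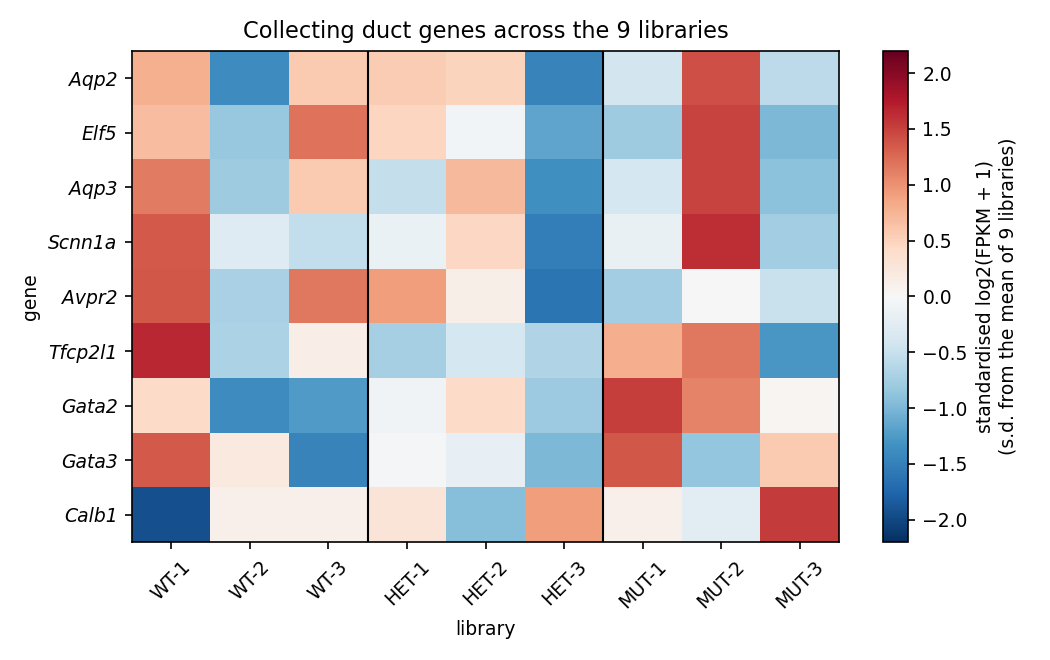
Log2(FPKM + 1) of the 9 genes (rows) in the 9 libraries (columns), in s.d. from each gene's mean over the libraries, with lines between genotypes. *Aqp2*, *Elf5*, *Aqp3* and *Scnn1a* are low together in HET library 3 and high together in MUT library 2, and *Calb1* is lowest in WT library 1.

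**Figure D5:**
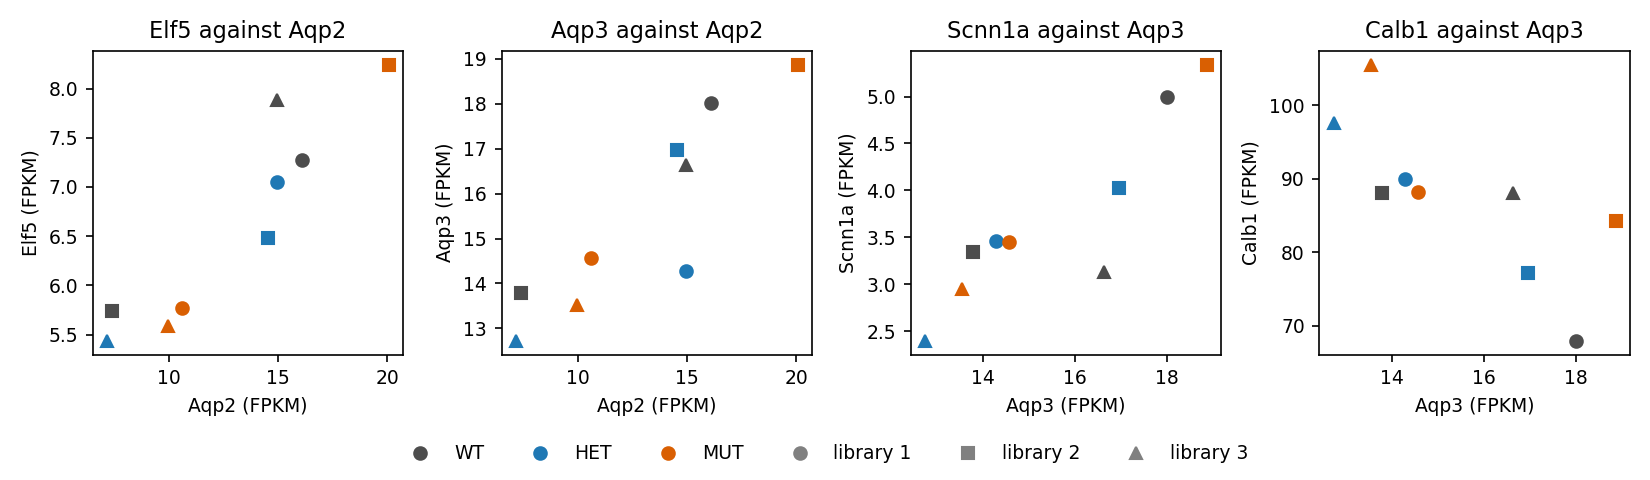
FPKM of 4 pairs of genes over the 9 libraries, coloured by genotype and shaped by library number. *Elf5* and *Aqp3* rise with *Aqp2* (r = 0.91 and 0.88), *Scnn1a* rises with *Aqp3* (r = 0.88) and *Calb1* falls with it (r = -0.76), with genotypes mixed along each cloud.

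Each gene was also set beside marker lists, relative depth and the FPKM total of a library, 144 relations in all. A marker list was taken here as the mean of log2(FPKM + 1) over its genes. One passed the adjustment in r, that of *Aqp3* with 17 other genes of principal cell water and sodium transport (r = 0.91, exact permutation p = 0.000314, adjusted 0.0452; rho = 0.90, exact p = 0.00203, adjusted 0.0417), and r was 0.79 without WT library 1 and MUT library 2. By rho alone 6 more passed, each with an adjusted p of 0.0417 by exact permutation. They were *Aqp2* and *Elf5* with the same principal cell genes (rho = 0.93 and 0.93, r = 0.84 and 0.87), *Aqp2* and *Elf5* with distal nephron genes (rho = 0.90 and 0.92, r = 0.80 and 0.89), *Gata3* with ureteric tip genes (rho = 0.90, r = 0.79) and *Calb1* with intercalated cell genes (rho = -0.92, r = -0.84). Without the 2 libraries farthest from the median of the gene, these r were 0.84, 0.82, 0.82, 0.87, 0.57 and -0.80 in the same order. For *Calb1* these were WT library 1 and MUT library 3, so HET library 2 was kept. The intercalated list holds *Car2* and *Slc4a1*, which red cells also express, at 43.5 and 9.20 FPKM in HET library 2. Elsewhere *Car2* had 13.0 to 23.1 FPKM and *Slc4a1* 0.952 to 2.26 FPKM. The part of that library in the relation was not tested. By summed FPKM, most of the principal cell list comes from genes that other tubules express as well. The means of the liver, sympathoadrenal and erythroid lists had r between -0.37 and 0.28 with the 9 genes (smallest adjusted p = 0.666, exact permutation). By rank, in which HET library 2 weighs less, rho ran from -0.62 for *Avpr2* to 0.32 for *Calb1*, both with the sympathoadrenal list. The smallest adjusted p of these rho was 0.317 (exact permutation). The endothelial mean had r = 0.54 with *Gata2* (exact permutation p = 0.131, adjusted 0.410; rho = 0.57, exact p = 0.121, adjusted 0.334), and r was 0.37 without WT library 2 and MUT library 1 and 0.87 as deviations from the genotype means. With *Tfcp2l1* it had r = 0.83 (exact permutation p = 0.00592, adjusted 0.0853; rho = 0.83, exact p = 0.00827, adjusted 0.108), and r was 0.85 without WT library 1 and MUT library 2. The part of endothelial RNA in the values of either gene was not tested. Other relations also fell short of the threshold. The list shared by the ureteric epithelium had r between -0.18 and 0.72 with the 9 genes, positive for 5 (smallest adjusted p = 0.205, exact permutation). With the ureteric tip list, r was -0.79 for *Elf5* (exact permutation adjusted p = 0.0959), -0.64 for *Aqp3* and -0.60 for *Aqp2*, and positive for 3 genes. *Gata3* had r = 0.82 with the stromal list (exact permutation p = 0.00409, adjusted 0.0736). *Tfcp2l1* had r = -0.80 with the nephron progenitor list (exact permutation p = 0.0094, adjusted 0.0959) and -0.79 with the FPKM total (exact permutation p = 0.0135, adjusted 0.102).

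The genes whose pattern over the 9 libraries was most like the mean of the 9 standardised profiles were sought among 9971 other genes that averaged 5 FPKM or more. They were *Irx2* (r = 0.97), a homeobox gene of the developing nephron, *Cldn19* (r = 0.95), a tight junction gene of the thick ascending limb, the nuclear receptor *Esrra* (r = 0.93), the sialidase *Neu1* (r = 0.93) and *Atp1b1* (r = 0.92), the beta subunit of the sodium pump. *Irx2* went from 3.45 FPKM in HET library 3 to 7.01 FPKM in MUT library 2, the same lowest and highest libraries as *Aqp2*. These values are given as a description, with no test.

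Other genes of the ureteric tree and its neighbours were read in MUT against HET, and no gene of any list had an adjusted p under 0.05. Of 19 tested genes shared by the ureteric epithelium, 13 were higher and 6 lower (median log2 fold change 0.11), with the examples *Pax2* (0.38), which specifies the lineage, *Wnt7b* (0.33), a stalk signal for the medulla, and the keratin *Krt18* (-0.21). Ureteric tip genes were divided, with 5 of 11 higher and 6 lower (median -0.01), for example *Dusp6* (-0.21) and *Spry1* (0.20), which both dampen receptor tyrosine kinase signalling. Among 13 tested genes of principal cell transport, 8 were higher and 5 lower (median 0.14), and the examples were the kinase *Sgk1* (-0.22), the protein kinase A subunit *Prkar2a* (0.23) and the adenylyl cyclase *Adcy6* (0.22). Of the GATA family and its cofactors, 4 of 6 were higher and 2 lower (median 0.07), and *Zfpm1*, a cofactor that binds GATA proteins, had the smallest p of the list (0.31, 95% interval 0.03 to 0.58), with MUT at 11.04 to 13.0 FPKM and HET at 9.09 to 9.998 FPKM.

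Intercalated cell genes were scarce, and only 2 of 12 were tested. *Atp6v1b1*, a proton pump subunit, differed by 0.02, and *Car2*, a carbonic anhydrase that red cells also hold, by -0.48, with HET library 2 at 43.5 FPKM and the other 8 libraries at 13.0 to 23.1 FPKM. In the distal nephron, 5 of 8 tested genes were higher and 3 lower (median 0.03), with *Irx1* at 0.23. Endothelial genes, a further source of *Gata2*, were higher in 6 of 10 and lower in 4 (median 0.06). The examples were *Flt1* (0.38), a receptor of VEGF, the ETS factor *Erg* (0.29) and the cadherin *Cdh5* (0.26). The groups did not overlap for *Flt1*, as for 9.69% of all genes tested. The lower genes were *Pecam1*, *Emcn*, *Egfl7* and *Cldn5*, with ratios of the mean FPKM of MUT over HET of 0.95, 0.95, 0.92 and 0.95. The sum of the list ranged from 348.1 to 365.5 FPKM in MUT, from 332.6 to 366.4 FPKM in HET and from 354.2 to 367.9 FPKM in WT. The 8 stromal genes gave 5 higher and 2 lower of 7 tested (median 0.04), nephron progenitor genes 3 and 3 of 6 (median -0.04), and the urothelium list had 1 tested gene, *Upk3a* (0.04). All 5 tested liver genes were lower (median -1.94), where HET library 2 carried the high values. The erythroid list had 1 tested gene, *Alas2* (-0.16), and none of the sympathoadrenal and adrenal cortex genes reached the minimum.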

How the data were processed

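RNA from whole E15.5 kidneys was made into stranded mRNA libraries (TruSeq) and sequenced on a NextSeq 550. STAR was the authors' aligner, transcript assembly was by cufflinks with cuffmerge, and CuffDiff gave the FPKM. The submitters' processing notes name mm10, and tool versions and the annotation are not given in the sources used here. The deposited FPKM were used as they are. The authors' genotype means were not used. Starts in the table count from 0, so 1 was added.

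Pairs of genotypes were tested by limma 3.58.1 (lmFit, then eBayes with its trend option, R 4.3.3) on log2(FPKM + 1), two-sided, over the genes that averaged 5 FPKM or more in one of them, with only the 6 libraries of the 2 genotypes compared. The replicate number was a block, p was adjusted by Benjamini-Hochberg over all genes tested, and the threshold was 0.05. The pairing was taken from the study's supplementary values, of which the 1 inspected, for *Gata2*, equals that of a test that pairs same-numbered libraries. Neither the labels nor the methods say what a number stands for, and same-numbered MUT and HET libraries did not deviate together (correlations of -0.31, 0.05 and -0.13). The sources give 3 kidneys per genotype and do not say which embryo or cross each came from, so p-values measure the spread between these libraries. The FPKM carry no read counts, so no counting error is given. Correlations used all orders of the 9 libraries for exact p. Promoter sequences are those of RefSeq on GRCm38.p6. Python 3.11.15, pandas 2.3.3, numpy 2.4.6, scipy 1.17.1 and matplotlib 3.10.9 were used, and the limma fit of MUT against HET was tested on simulated data.

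The 9 genes, the lists and the alternatives were chosen with earlier results of these data known. Named are the 9 genes, *Ntn1* and *Foxd1*, up to 3 genes of each list with the smallest p in MUT against HET, defining markers of other tissues, and the 5 genes with the most similar pattern. A gene that this rule names is not reported here. The alternatives were pseudocounts of 0.1 and 3, a minimum of 1 FPKM or none, median-ratio rescaling, no block, all 9 libraries in 1 fit, no trend, a GC correction (a spline with 5 degrees of freedom, GC known for 95.9% of loci) and each replicate number left out. Leaving out HET library 2 alone was chosen after seeing the data.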

Additional observations from a re-analysis of the deposited data

How the results depend on the processing

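The spread of 3 libraries per genotype set the limit of what could be detected, and the FPKM give no read counts. No gene passed the threshold under any pseudocount, minimum, rescaling or GC correction, without the trend, with all 9 libraries in 1 fit or with no replicate block (0 genes and 0 of the 9 in each comparison). With a replicate number left out, 30 to 148 genes passed in MUT against HET, 1 to 168 in MUT against WT and 1 to 125 in HET against WT. These fits have 1 residual degree of freedom. Of the 7 tested genes, 0 to 1 passed in MUT against WT, the 1 being *Aqp2* without number 2 (-0.55), and *Avpr2* passed there too in the fit with a minimum of 1 FPKM (-0.47, adjusted p = 0.0280 by limma). The cause was not tested.

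The unadjusted p of *Gata2* in MUT against HET was under 0.05 in the reported fit and not with a pseudocount of 3, a minimum of 1 FPKM, no replicate block, no trend, the GC correction, or without number 1 or number 2, whereas in MUT against WT it was under 0.05 in every fit, with no replicate block included. Without the block, genes with an unadjusted p under 0.05 numbered 636 in MUT against HET (494 with it), 65 in MUT against WT (201 with it) and 108 in HET against WT (233 with it). With no FPKM minimum the last 2 counts were 762 and 627, with a minimum of 1 FPKM MUT against WT had 342, and HET against WT had 115 with all 9 libraries in 1 fit and 154 with the GC correction. Leaving out a number gave 173 to 2180, 143 to 1088 and 300 to 596 in the 3 comparisons in turn. Leaving out HET library 2, without the block, gave 294 in MUT against HET and 99 in HET against WT.

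Directions turned in these cases, given as the range of log2 fold changes over the fits that leave out 1 number. In MUT against HET the ranges were -0.018 to 0.43 for *Aqp2* (-0.0098 without number 3), -0.11 to 0.17 for *Elf5* and -0.22 to 0.12 for *Avpr2*. In MUT against WT they were -0.55 to 0.39 for *Aqp2*, -0.28 to 0.073 for *Aqp3*, -0.28 to 0.12 for *Tfcp2l1*, -0.36 to 0.084 for *Elf5*, -0.10 to 0.20 for *Gata3* and -0.25 to 0.24 for *Scnn1a*. In HET against WT they were -0.53 to 0.39 for *Aqp2*, -0.25 to 0.056 for *Elf5*, -0.40 to 0.049 for *Avpr2*, -0.0053 to 0.29 for *Gata2*, -0.17 to 0.010 for *Gata3* and -0.021 to 0.27 for *Calb1*. The GC correction turned *Aqp2* (-0.026) and *Scnn1a* (-0.027) in MUT against WT, and leaving out HET library 2 turned *Calb1* (-0.023) in MUT against HET. The other values kept their direction. As deviations from the genotype means, the correlation of *Gata2* with *Calb1* went from -0.28 to -0.95 and with *Tfcp2l1* from 0.54 to 0.85.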

Other observations

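Summed over the 9 genes, the level was 199.7 to 210.1 FPKM in MUT, 182.6 to 192.7 FPKM in HET and 177.7 to 196.0 FPKM in WT. The MUT libraries lay above all others in this sum, although for none of the 9 genes alone did the groups stop overlapping, and *Calb1* was the largest part of it. With the genes weighted equally, as the mean of the 9 standardised profiles, the genotypes overlapped. That mean was 0.14, 0.80 and -0.32 in MUT and 0.76 in WT library 1. No test is given for a sum over genes chosen with results known.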
